A study of Rattus norvegicus with 4 samples.

Results

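The Hox genes measured here are the 37 gene symbols of the feature table made of Hox, a cluster letter from a to d and a number. They occupy 43 of its 25399 rows, since 5 HoxA symbols stand on more than 1 row. The HoxA, HoxC and HoxD clusters are each represented by 9 symbols and HoxB by 10. Hox genes encode homeodomain transcription factors that give cells their position along the head-to-tail axis of the embryo and along the limb. Within each cluster the genes with low numbers (anterior paralogs) are switched on early and further forward, and those with high numbers (posterior paralogs) later and further back. Limb muscle and its vessels form from trunk mesoderm that carries Hox expression, whereas the extraocular muscles and their connective tissue form from head mesoderm and anterior cranial neural crest, which lie in front of the Hox domain.

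UMIs (unique molecular identifiers, 1 per captured transcript) came from total cells released by enzymatic digestion of muscle from rats aged 12 months. There were 4 libraries, 1 for each muscle, the tibialis anterior (TA, a hind limb muscle) or the extraocular muscles (EOM, which turn the eyeball), and for each disease state, WT or DMD. The sources used here give neither the strain, the allele behind DMD nor the number of rats per library. The libraries are named TA WT, TA DMD, EOM WT and EOM DMD by the disease state field of the labels, and in all 4 the sample title states the opposite state. Each TA library was set against the EOM library of the same field, and the titles pair the same libraries, so a TA against EOM direction does not depend on which is right; a DMD against WT direction does.

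The matrices held 3550, 8944, 1917 and 3093 barcodes for TA WT, TA DMD, EOM WT and EOM DMD, with 9955900 to 20685086 UMIs, and libraries shared 1 to 10 barcode sequences a pair. After filtering, 2083, 7964, 1249 and 2261 cells were analysed, with a median of 2484, 1224, 3650 and 4488 UMIs per cell, so TA DMD was the shallowest library. Cell classes were rebuilt by clustering without the Hox genes and are written as "X-like"; Pecam1, Myh1, Myh2 and Ttn are defining markers with no row of that name. Levels are UMIs per 1000000 UMIs of the same class and library (CPM), which compare a gene between libraries, while a comparison between genes also reads how well each 3' end was captured. Intervals in parentheses are 95% intervals for counting error only, and a class with 0 UMIs is set to 3 counts when a fold is given as "at least". With 1 library per muscle and disease state there is no replicate of any group. The fits leave 1 residual degree of freedom, so the p-values given rest mostly on a spread shared across genes. A lower CPM of a class cannot separate fewer expressing cells from less RNA per cell.

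Hox transcripts were found mainly in limb muscle and were nearly missing from eye muscle. Over all barcodes the 37 genes gave 4422 UMIs in the 2 TA libraries and 140 in the 2 EOM libraries. Among analysed cells the summed level was 151 CPM (142–161) in TA WT and 162 CPM (157–168) in TA DMD, against 4.29 CPM (2.85–6.20) in EOM WT and 7.08 CPM (5.66–8.74) in EOM DMD. The TA and EOM intervals did not overlap. By the rows that carry a Hox name, HoxB had 2198 UMIs in TA (22 in EOM), HoxC 1035 (18 in EOM), HoxD 826 (98 in EOM) and HoxA 363 (2 in EOM). This order depends on 7 rows with other names that stand among the HoxA rows of the feature table and held 3508 UMIs in TA and 27 in EOM. Counted as HoxA, a choice made after seeing the data, they would bring that cluster to 3871 UMIs in TA, above HoxB, and to 29 in EOM. HoxD gave most of the few Hox UMIs of eye muscle under either count. At least 1 UMI was found for 27 of the 37 genes. Hoxa3, Hoxa9, Hoxa10, Hoxb1, Hoxb13, Hoxc12, Hoxc13, Hoxd11, Hoxd12 and Hoxd13 had none in any library.

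RefSeq promoters on the rat build GRCr8 could be matched to 19 of the 37 genes (20 promoters). The stretches of 250 bases before the start are shown for 3 genes whose levels the results turn on, one from each of the HoxA, HoxC and HoxD clusters, and CG dinucleotides are in capitals. Of the HoxB genes only Hoxb1, which had no UMI, was matched.
Hoxa2, chr4:82595693-82595942 (minus strand): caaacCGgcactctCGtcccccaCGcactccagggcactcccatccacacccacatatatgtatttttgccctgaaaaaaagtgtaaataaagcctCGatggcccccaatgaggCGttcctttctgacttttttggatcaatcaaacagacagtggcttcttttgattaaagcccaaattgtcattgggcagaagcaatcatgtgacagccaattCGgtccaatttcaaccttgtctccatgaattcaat
Hoxc4, chr7:136048809-136049058 (plus strand): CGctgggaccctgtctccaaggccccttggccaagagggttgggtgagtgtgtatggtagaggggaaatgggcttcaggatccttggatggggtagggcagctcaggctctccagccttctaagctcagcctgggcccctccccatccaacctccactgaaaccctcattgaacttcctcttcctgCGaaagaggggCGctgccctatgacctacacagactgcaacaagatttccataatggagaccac
Hoxd9, chr3:80007756-80008005 (plus strand): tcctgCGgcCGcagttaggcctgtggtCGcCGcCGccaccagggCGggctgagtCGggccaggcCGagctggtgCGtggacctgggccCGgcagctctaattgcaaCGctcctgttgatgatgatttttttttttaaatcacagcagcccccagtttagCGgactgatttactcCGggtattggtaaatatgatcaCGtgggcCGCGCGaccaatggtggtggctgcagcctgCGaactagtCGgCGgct
The Hoxd9 stretch holds 20 CG, more than 83.3% of the 33469 promoters of the table, while Hoxa2 holds 6 and Hoxc4 3. The median over the 20 Hox promoters was 19 CG and 60.0% G or C, against 5 CG and 51.2% over all promoters. The Pbx-Hox composite motif TGATNNAT, searched on both strands, occurred in 3 of the 20 (7.96% of all promoters) and the homeodomain core TAATTA in 1 (4.86%). The retinoic acid receptor half-site AGGTCA occurred in 3 (14.1%) and the GC box GGGCGG in 9 (30.5%). Each motif was counted on its own, whether or not it overlapped another. Of the printed stretches, Hoxa2 has 1 composite motif, Hoxc4 1 half-site and Hoxd9 1 GC box, which describes letters and not factor binding.

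The excess in TA was seen class by class. In endothelial-like cells the summed Hox level was 181 and 205 CPM in TA WT and TA DMD against 2.81 and 7.28 CPM in EOM WT and EOM DMD, a ratio of 64.5 (25.1–237) in the WT pair and 28.1 (16.0–54.5) in the DMD pair. In mural-like cells (pericytes and vascular smooth muscle) it was 143 and 159 CPM against 7.23 and 15.3 CPM, a ratio of 19.8 (6.61–97.5) and 10.4 (5.90–20.2). Satellite-like cells, which include the stem cells of muscle, had 349 and 284 CPM in TA and no Hox UMI at all in EOM, where 134 and 225 cells were analysed; TA was at least 88.5-fold and at least 118-fold higher. Myofibre-like cells had 157 and 144 CPM in TA and 0 in both EOM libraries, at least 20.02-fold in the DMD pair. The EOM WT library held only 37 myofibre-like cells.

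**Figure D1:**
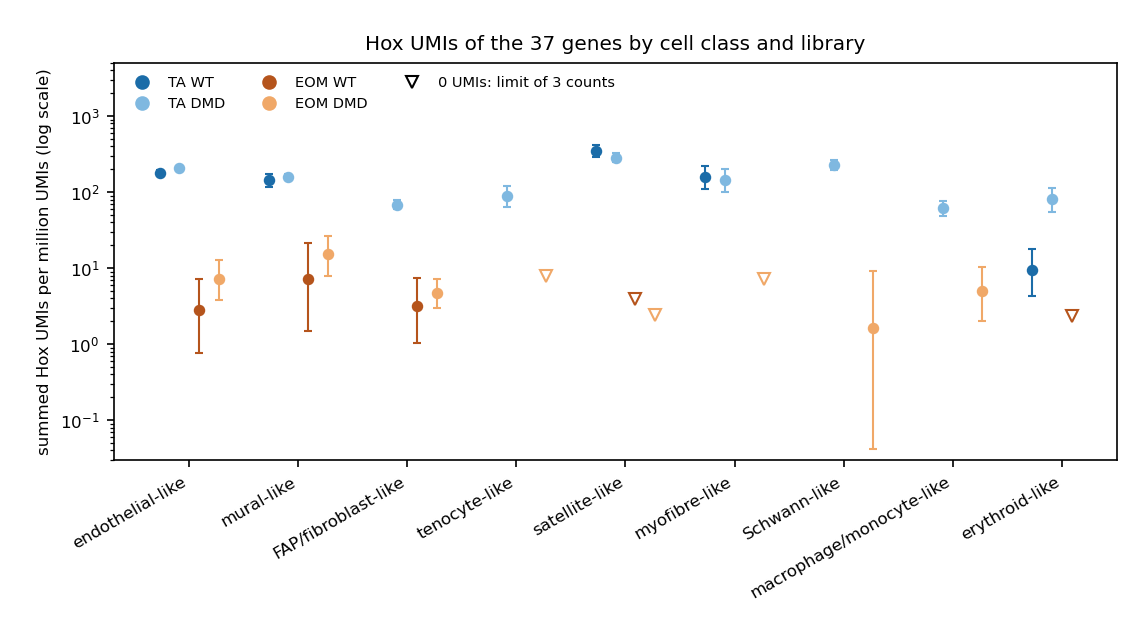
Summed level of the 37 Hox genes (UMIs per 1000000 UMIs, log scale) for each cell class and each of the 4 libraries. Points are single libraries and bars are 95% counting intervals; in endothelial-, mural- and satellite-like cells both TA libraries (143 to 349) sit above both EOM libraries (0 to 15.3).

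Stromal and glial classes could be compared in the DMD pair. Cells resembling FAPs (fibro-adipogenic progenitors) and fibroblasts had 68.7 CPM in TA DMD and 4.75 CPM in EOM DMD, a ratio of 14.4 (9.29–23.5), with 3.18 CPM in EOM WT. TA DMD and EOM cells of that class lay mostly in different clusters (1089 TA DMD cells in cluster 18, 186 and 571 EOM cells in cluster 22). Schwann-like cells, the glia of nerve, had 228 CPM in TA DMD and 1.65 CPM in EOM DMD, a ratio of 138 (24.5–5497) that rests on 1 EOM UMI. Tenocyte-like cells (tendon) had 88.2 CPM in TA DMD and 0 in EOM DMD, at least 11.2-fold. No Hox gene with enough UMIs (20 in each pair compared) was at least 2-fold higher in EOM in any class. Genes at or near 0 in EOM reach that minimum only through TA and could hardly come out higher in EOM, so nothing is read from this.

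Erythroid-like cells were taken as a reference level, on the untested assumption that they lack these genes. They had 80.2 CPM of Hox UMIs in TA DMD but 9.53 in TA WT, 0 in EOM WT and 0 in the 9 EOM DMD cells. Their median depth was 981.5 UMIs in TA DMD against 18255 in TA WT and 19818 in EOM WT. The erythroid markers Ahsp (2.43 to 356 CPM) and Slc4a1 (9.72 to 138 CPM) were lowest in TA DMD, so the class name is less sure there. Of the TA DMD value, 87.9% was HoxB, and Hoxb7 stood at 41.3 CPM, 66.6% of its endothelial-like level in that library. The summed endothelial markers in those cells stood at 37.8% of the endothelial-like level in TA DMD and at 3.44% in TA WT. At medians of 981.5 and 1779 UMIs per cell, 8.52% of TA DMD erythroid-like cells had a Hox UMI against 32.5% of endothelial-like cells. A HoxB level of TA DMD near or below the erythroid-like value is therefore not read as expression by its class. An example is Hoxb7 in macrophage-like cells, at 21.3 CPM in TA DMD and 0 in the other 3 libraries. The 0 of TA WT rests on few cells and has an upper limit of 26.7 CPM, so it does not set TA WT apart from TA DMD. The source of these UMIs was not tested.

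By the named rows, the mix of clusters varied between the classes of limb muscle. In TA WT and TA DMD, HoxB made up 75.9% and 71.5% of Hox UMIs in endothelial-like cells, HoxD 17.7% and 19.2%, HoxA 6.09% and 5.72%, and HoxC 0.283% and 3.57%. Mural-like cells had HoxC at 50.4% and 48.1%, HoxD at 28.3% and 21.1%, HoxA at 21.2% and 15.6%, and HoxB at 0 and 15.1%. Satellite-like cells were almost wholly HoxC, 97.4% and 94.04%, and myofibre-like cells likewise, 94.4% and 86.5%. FAP-like cells of TA DMD divided their UMIs among the 4 clusters, with 27.7% HoxA, 21.1% HoxB, 25.8% HoxC and 25.4% HoxD. Schwann-like cells of TA DMD had 51.0% HoxC and 37.6% HoxB. Hoxb7 in these FAP-like and Schwann-like cells, at 6.12 and 27.6 CPM, lay below its 41.3 CPM in erythroid-like cells. Its part of their HoxB shares in TA DMD is therefore assigned neither to the class nor to another source. In TA WT, Hoxb7 was at 46.9 CPM in Schwann-like cells (5 UMIs) and 55.0 in FAP-like cells (3 UMIs), from few cells. Erythroid-like cells of TA WT had 0, with an upper limit of 3.91 CPM. The source of these UMIs was not tested. With the 7 other rows of the HoxA block counted as HoxA, HoxA would hold 48.2% and 44.8% of endothelial-like UMIs in TA WT and TA DMD and HoxB 41.8% and 41.9%. HoxA would then hold 64.3% and 61.0% of the mural-like and 73.2% of the TA DMD FAP-like UMIs, and HoxC would still lead in satellite-like cells with 73.4% and 67.0% and in myofibre-like cells with 79.1% and 68.1%. No table used here pairs those rows, other than LOC100911668, with a gene name, so the HoxA and HoxB shares remain uncertain. The paralog number of the named genes varied as well. Paralogs 9 to 13 held 82.8% and 78.9% of the satellite-like UMIs, 94.4% and 97.3% of the myofibre-like, 48.7% and 39.3% of the mural-like and 12.5% and 16.4% of the endothelial-like UMIs, whereas paralogs 4 to 8 held 68.0% and 68.1% of the endothelial-like UMIs.

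**Figure D2:**
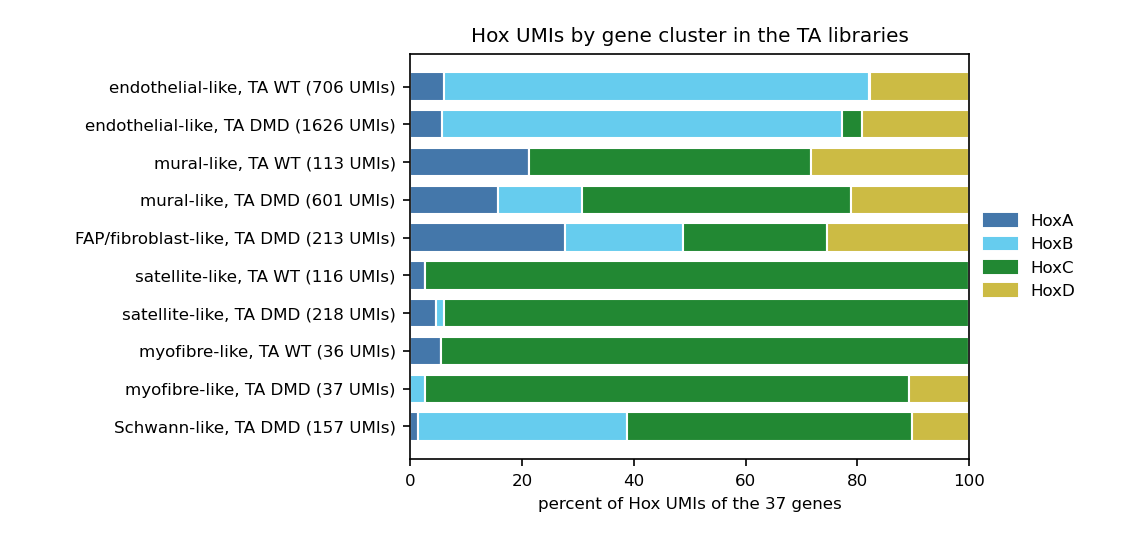
Share of the Hox UMIs (percent) that fell in the HoxA, HoxB, HoxC and HoxD clusters, for classes of the TA libraries, with the number of Hox UMIs beside each name. Endothelial-like bars are mostly HoxB (75.9% and 71.5%) and satellite- and myofibre-like bars mostly HoxC (86.5% to 97.4%); the 7 unnamed rows of the HoxA block are left out, and with them as HoxA the endothelial-like HoxB shares would be 41.8% and 41.9%.

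In endothelial-like cells the leading named genes were HoxB genes of the anterior and middle paralog groups. Hoxb4 stood at 60.6 CPM (53.1–68.8) in TA WT, 40.1 (35.9–44.8) in TA DMD, 0.703 in EOM WT and 0 in EOM DMD. Hoxb7 stood at 35.2 CPM (29.5–41.6) in TA WT, 62.0 (56.7–67.8) in TA DMD and 0 in both EOM libraries, at least 16.7-fold and at least 34.1-fold. For both genes the TA values lie far above the EOM values and the groups do not overlap. Hoxb3 was at 16.2 and 11.8 CPM in the TA libraries, Hoxb5 at 13.6 and 17.4, Hoxb2 at 9.50 and 7.93, Hoxa2 at 8.47 and 9.94 and Hoxd4 at 5.65 and 6.04, each with 0 UMIs in both EOM libraries. Their lower bounds ran from 2.68-fold (Hoxd4, WT pair) to 9.54-fold (Hoxb5, DMD pair). Hoxb8 was at 1.03 CPM in TA WT and 4.40 in TA DMD with 0 in EOM, and the TA DMD value lies below that of erythroid-like cells (4.86 CPM, 2 UMIs). Hoxd8 stood at 2.57 and 2.64 against 0 and 0.607.

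Hoxd9, a posterior HoxD gene, was the one endothelial gene with more than 1 UMI in each EOM library. It stood at 22.3 CPM (17.9–27.5) in TA WT, 28.3 (24.7–32.3) in TA DMD, 2.11 (0.435–6.16) in EOM WT and 6.68 (3.33–11.9) in EOM DMD. TA was higher by 10.6-fold (3.51–52.4) in the WT pair and 4.24-fold (2.33–8.62) in the DMD pair. The 4 values do not overlap between muscles.

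Over all genes of the class, edgeR's quasi-likelihood test with Benjamini-Hochberg adjustment called 0.0613% of 9784 genes higher in TA. Of the 8 Hox genes that passed its low-count filter, which in a gene near 0 in EOM could be passed only through TA, Hoxb4 (adjusted p = 0.00849) and Hoxb7 (adjusted p = 0.0173) were called. The other 6 did not pass: Hoxb5 had an adjusted p of 0.0880, Hoxb3 0.0958, Hoxd9 0.109, Hoxa2 0.158, Hoxb2 0.169 and Hoxd4 0.257 in the same test. The fitted log2 differences of 7.13 for Hoxb4 and 10.53 for Hoxb7 depend on how a near-zero EOM count is treated, unlike the 2.54 of Hoxd9. Leaving out EOM WT or EOM DMD ended both calls, and leaving out TA WT or TA DMD raised the count to 7 or 4. By size alone, 8 of the 8 Hox genes with at least 20 UMIs in each pair were 2-fold or more higher in TA in both pairs, as were 0.775% of 9424 genes. Genes at or near 0 in EOM reach 20 UMIs only through TA, so nothing is read from this count here or in the classes that follow.

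**Figure D3:**
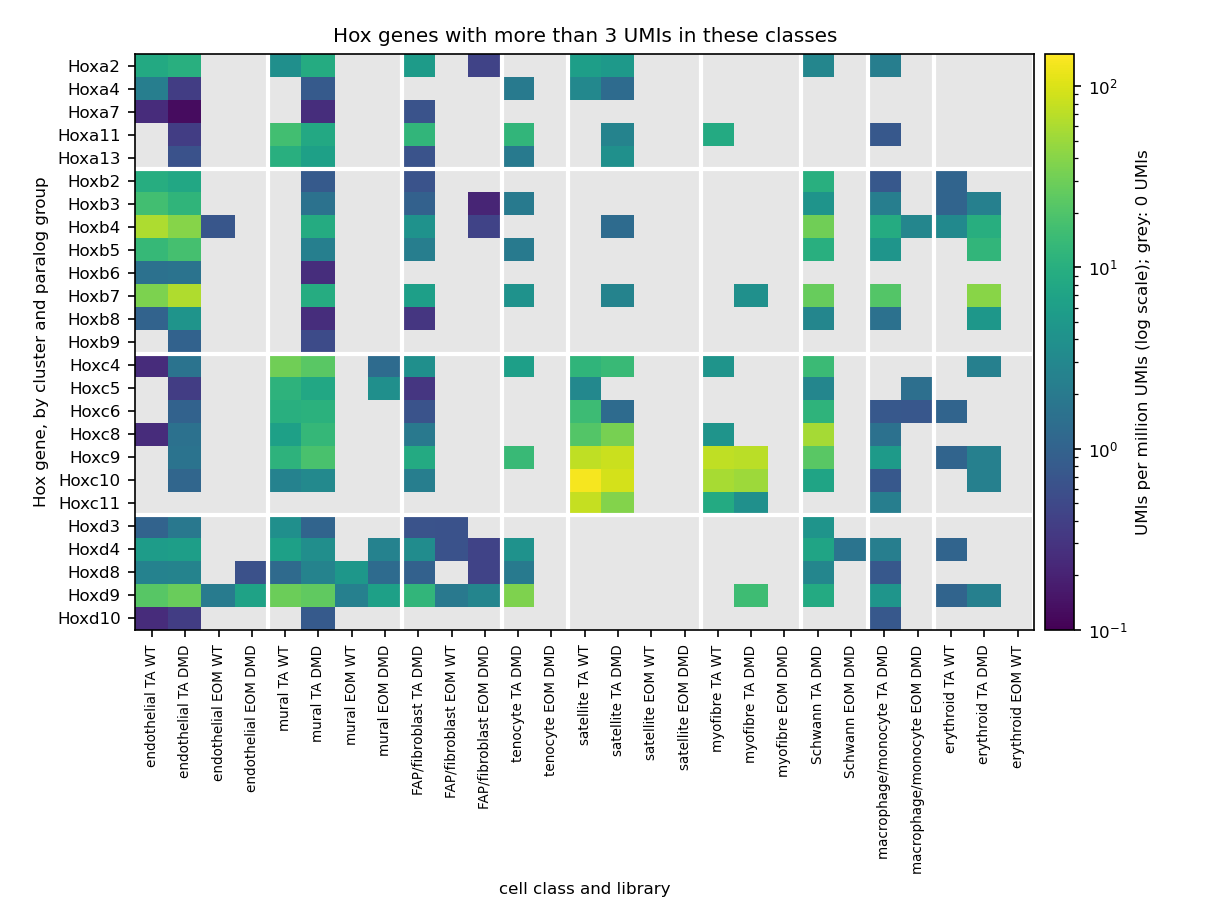
Level of each Hox gene with more than 3 UMIs in these classes (UMIs per 1000000 UMIs, colour on a log scale), by class and library. The HoxB rows are filled in TA endothelial-like cells (Hoxb4 60.6 and 40.1, Hoxb7 35.2 and 62.0) and the posterior HoxC rows in TA satellite-like cells, while EOM columns are empty but for a few genes such as Hoxd9.

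Between the TA libraries, Hoxb4 and Hoxb7 differed in opposite directions in endothelial-like cells. TA DMD over TA WT was 0.663 (0.558–0.788) for Hoxb4 and 1.76 (1.46–2.15) for Hoxb7, with no replicate of either library and with the disease labels in doubt. A cluster led by Plvap (cluster 19), which codes for a protein of the diaphragms of fenestrated endothelium, held 821 of the 2833 endothelial-like cells of TA DMD. Its Hoxb7 level was 81.5 CPM and its HoxC level 15.3 CPM, and its summed mural markers stood at 1400 CPM. Without it, Hoxb7 in TA DMD was 47.4 CPM, Hoxb4 46.1 CPM, HoxC 1.32 CPM in place of 7.30, and mural markers 131 CPM in place of 675. The part of the mural transcripts in the HoxC level was not tested.

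Mural-like cells expressed a different set. Hoxc4, the HoxC gene with the lowest number, was at 30.4 CPM (19.5–45.3) in TA WT, 23.2 (18.6–28.6) in TA DMD, 0 in EOM WT and 1.27 in EOM DMD. Hoxd9 was at 29.2 CPM (18.5–43.8), 25.1 (20.3–30.7), 2.41 and 6.37 in the same order, a ratio of 12.1 (1.97–499) in the WT pair and 3.94 (1.63–12.4) in the DMD pair. For Hoxc4 and Hoxd9 both TA values lie above both EOM values. Hoxa11 and Hoxa13, posterior HoxA genes known for patterning the middle and far segments of the limb, were at 16.5 and 8.18 CPM and at 10.1 and 6.34 CPM in TA and 0 in EOM. Neither had more than 5 UMIs in endothelial-like cells of a TA library (0.378 CPM for Hoxa11 and 0.629 for Hoxa13 in TA DMD, 0 for both in TA WT). Hoxc9 was at 11.4 and 18.2 CPM, Hoxc6 at 10.1 and 10.6, Hoxc8 at 6.34 and 13.2 and Hoxa2 at 3.80 and 8.98, each 0 in EOM. Hoxc5 stood at 11.4 and 7.92 CPM in TA against 0 and 3.82 in EOM, and Hoxd4 at 6.34 and 3.70 against 0 and 2.55. For these 2 genes the DMD pair's interval includes no difference (0.645–10.6 and 0.333–13.2).

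In the mural-like fit, where edgeR called 1.3% of 7556 genes higher in TA, the 2 Hox genes that passed the low-count filter were both called. Hoxc4 had a log2 difference of 4.80 (adjusted p = 0.000371) and Hoxd9 of 2.38 (adjusted p = 0.00868) in edgeR's quasi-likelihood test. Both calls ended when any of the 4 libraries was left out, and DESeq2 called neither. The 2-fold rule in both pairs was met by 2 of the 2 genes with enough UMIs, as by 0.762% of 6689 genes. In the DMD pair alone, chosen after seeing the data, 10 of 11 Hox genes met it, as did 7.48% of 9769 genes. Most of these genes have 0 UMIs in EOM and had enough UMIs only through TA, so the counts describe the members and carry no further weight.

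HoxB in mural-like cells followed one cluster. Hoxb4 and Hoxb7 had 0 UMIs in TA WT, EOM WT and EOM DMD but 8.98 and 9.24 CPM in TA DMD. Cluster 7, with 740 of the 1590 mural-like cells of TA DMD and a median of 841.5 UMIs per cell, had 66.6 CPM of HoxB and 2749 CPM of summed endothelial markers. Without it, HoxB stood at 5.32 CPM in place of 24.0 and Hoxb7 stood at 1.90 CPM, with endothelial markers at 392 CPM, while HoxA was at 25.5 CPM (24.8 with it) and HoxC at 84.8 (76.3 with it). TA WT mural-like cells had 151 CPM of endothelial markers.

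Satellite-like cells of the limb were marked by the HoxC genes from Hoxc8 to Hoxc11. Hoxc10 was at 135 CPM (98.6–181) in TA WT and 93.8 (73.4–118) in TA DMD, Hoxc9 at 75.1 (48.6–111) and 84.7 (65.4–108), Hoxc11 at 78.1 (51.0–114) and 39.1 (26.4–55.8), and Hoxc8 at 21.0 (8.46–43.3) and 33.9 (22.1–49.6). All 4 had 0 UMIs in both EOM libraries, where the upper limits were 4.84 and 2.96 CPM. TA was at least 34.3-fold and 38.9-fold higher for Hoxc10, at least 19.1-fold and 35.2-fold for Hoxc9, at least 19.8-fold and 16.2-fold for Hoxc11, and at least 5.34-fold and 14.1-fold for Hoxc8. Among the defining markers of the class, Pax7 was at 261 to 352 CPM and Myf5 at 1031 to 1205 over the 4 libraries. Others varied more: Myod1 ran from 73.9 to 415 CPM, Calcr from 62.5 to 222 and Chrdl2 from 3.91 to 663. The class is therefore not taken as alike in all libraries. Hoxc11 was lower in TA DMD than in TA WT (ratio 0.5002, 0.286–0.881), without a replicate.

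No gene of the satellite-like class passed the adjusted threshold in edgeR's quasi-likelihood test (0.0% of 7197 genes called higher in TA), while 841 had an unadjusted p under 0.05. Among the 4 Hox genes tested, Hoxc10 had an adjusted p of 0.0562, Hoxc9 0.0612, Hoxc11 0.0966 and Hoxc8 0.134 from edgeR, each with an unadjusted p under 0.05. DESeq2 called 35 genes in either direction and no Hox gene, with 4 Hox genes at an unadjusted p under 0.05. Leaving out TA WT brought 4 of them under the adjusted threshold and leaving out TA DMD 3. The 2-fold rule in both pairs was met by 1.3% of 6062 genes; the 3 Hox genes with enough UMIs met it, but with 0 UMIs in EOM they could not have come out otherwise.

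The same gap was seen within one cluster shared by all libraries. Cluster 9 held 50, 63, 132 and 220 satellite-like cells of TA WT, TA DMD, EOM WT and EOM DMD, with medians of 5140 to 6882 UMIs per cell. Its summed Hox level was 351 and 368 CPM in TA and 0 in both EOM libraries. The remaining TA DMD cells were nearly all in cluster 15 (236 cells, median 873 UMIs, Cdkn2a 253 CPM), where the sum was 180 CPM, with Hoxc9 at 61.0 and Hoxc10 at 52.3. By cells, 76.8% of TA WT and 28.4% of TA DMD satellite-like cells had a Hox UMI, against 0 of 134 and 0 of 225 in EOM. A limit of 3 counts allows shares of up to 2.24% and 1.33% of cells with a UMI there, and the exact Clopper-Pearson upper bounds are 2.72% and 1.63%; neither limits the share of cells expressing a Hox gene. After thinning to 1000 UMIs the TA shares were 32.7% and 21.3% and the EOM shares 0. Without thinning, the Hoxc10 share was 46.4% in TA WT and 15.1% in TA DMD satellite-like cells, at medians of 6141.5 and 1042 UMIs per cell. These 2 shares are therefore not compared.

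Myofibre-like cells carried the same leading genes at TA levels near those of satellite-like cells for Hoxc9. Hoxc9 was at 74.3 CPM (43.3–119) in TA WT and 70.2 (41.6–111) in TA DMD, and Hoxc10 at 56.8 (30.3–97.2) and 50.7 (27.003–86.7). Both had 0 UMIs in EOM, at least 9.74-fold and 7.03-fold in the DMD pair.

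In FAP-like cells of TA DMD, Hoxa11 and Hoxd9 led with 12.2 CPM each (8.67–16.8). Hoxa11 had 0 UMIs in both EOM libraries, at least 18.9-fold in the DMD pair, and Hoxd9 1.91 and 2.81 CPM, a ratio of 4.36 (2.27–8.92). Hoxc9 was at 8.70 CPM and 0 in EOM, at least 13.4-fold. Hoxb7, at 6.12 CPM in TA DMD, was found in 1.26% of these cells and in 4.81% of erythroid-like cells. Hoxa11 was found in 2.31% against 0 and Hoxd9 in 2.38% against 0.370%, at median depths of 934.5 and 981.5 UMIs, and the source of the UMIs was not tested. In the DMD pair 8.81% of 10720 genes were at least 2-fold higher in TA, among them the 3 Hox genes with 20 UMIs, of which Hoxa11 and Hoxc9 reached that minimum only through TA DMD. TA WT held only 20 FAP-like cells.

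Schwann-like cells of TA DMD were led by Hoxc8, at 56.6 CPM (40.3–77.4) against 0 in EOM DMD, at least 11.5-fold, and found in 10.2% of cells against 0 of the erythroid-like cells. Hoxb4 was at 30.5 CPM and Hoxb7 at 27.6, at least 6.17-fold and 5.58-fold. The 2-fold rule for that pair was met by 8.07% of 7115 genes, among them Hoxb4 and Hoxc8, which reached 20 UMIs only through TA DMD. The Hoxb7 share of 6.18% lies near the 4.81% of erythroid-like cells. TA WT, with only 26 Schwann-like cells, had 46.9 CPM for each of the 3 genes.

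Hoxd9 was the Hox gene most often seen in eye muscle, with 16 UMIs in EOM WT and 53 in EOM DMD over all barcodes. Among classes with at least 10 Hoxd9 UMIs in TA DMD, the order of its levels there was lymphatic endothelial-like (340 CPM), tenocyte-like (36.9, 21.9–58.4), endothelial-like (28.3), mural-like (25.1, 20.3–30.7) and FAP-like (12.2), and the middle 3 do not differ beyond their counting intervals. With 4 and 2 UMIs, myofibre-like cells had 15.6 CPM and neutrophil-like cells 24.9997. Lymphatic endothelial-like cells had Hoxd9 at 259 CPM in EOM WT and 303 in EOM DMD, from 10 and 14 cells. In that class the sum of Hox genes was 735 CPM (594–901) in TA DMD, 389 (201–679) in EOM WT and 492 (321–721) in EOM DMD, and the intervals overlap. The sum was highest in TA DMD, but with these 24 EOM cells the gap between muscles was smaller than in the classes compared above. The 24 cells gave 12 of the 28 and 26 of the 86 Hox UMIs of the analysed EOM cells. Hoxd9 was at like levels in both muscles in that class. Hoxb7 was at 127 CPM (72.3–205) in TA DMD and at 0 and 18.9 CPM (1 UMI) in EOM WT and EOM DMD. The EOM upper limits were 119 and 105 CPM, so the Hoxb7 intervals overlap. Hoxb4 was at 39.5 CPM in TA DMD and at 32.4 and 75.7 in EOM WT and EOM DMD. Satellite-like cells had no Hoxd9 UMI in any library. In tenocyte-like cells the EOM values were 9.08 CPM (1 UMI) and 0.

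**Figure D4:**
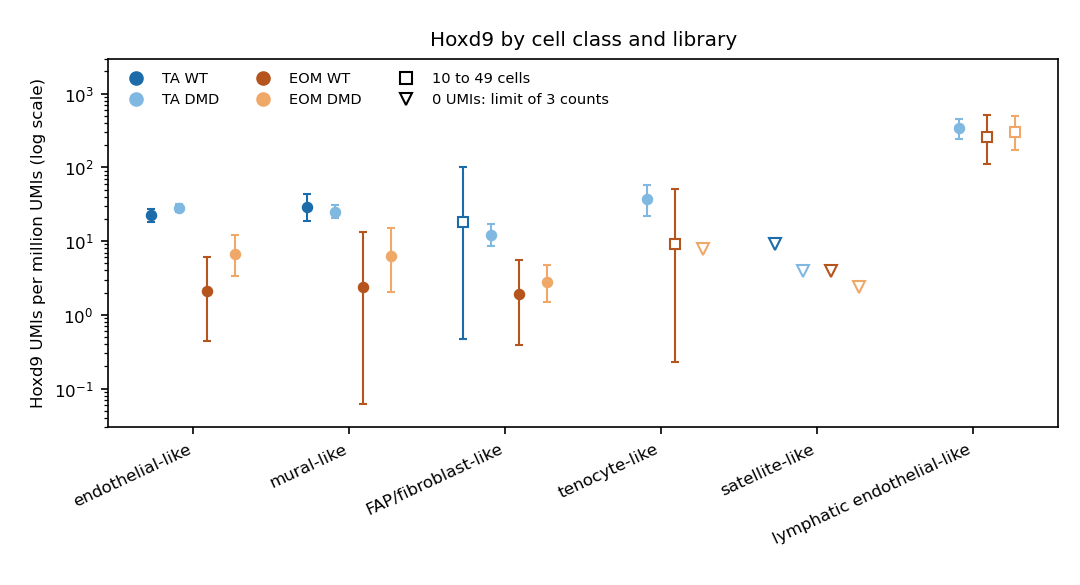
Hoxd9 level (UMIs per 1000000 UMIs, log scale) by class and library, with 95% counting intervals; squares mark 10 to 49 cells and triangles the limit for 0 UMIs. Lymphatic endothelial-like cells are high in both muscles (259 to 340), and the filled EOM points lie at 1.91 to 6.68.

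HoxA is the least certain of the clusters in this feature table. Of its 15 rows only 6 had a UMI, and 9 were at 0 in all libraries. For the 5 symbols on more than 1 row, 5 of 11 rows had UMIs. Reads of near-identical copies could be lost or assigned elsewhere, so the zeros of Hoxa3, Hoxa9 and Hoxa10 are uncertain. A row named LOC100911668, whose number is the RefSeq gene identifier of Hoxa10, had 4 and 23 UMIs in TA and 0 in EOM, while the row named Hoxa10 had 0.

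The 5 genes whose level (log2 of CPM plus 10) over 30 class and library combinations was most like the Hox sum were LOC100911622 (r = 0.90), LOC100909604 (r = 0.87), LOC103689922 (r = 0.86), AABR07068341.1 (r = 0.66) and AC132539.2 (r = 0.63). The points share libraries and depths, and the first 3 genes stand among the HoxA rows of the feature table. LOC103689922 had 83.7 and 80.9 CPM in TA endothelial-like cells, 88.8 and 108 in mural-like and 48.1 and 58.6 in satellite-like cells, with 0 in EOM in each. LOC100911622 had 44.7 and 38.0 CPM in TA endothelial-like cells against 0 and 1.82 in EOM. Both were among the 6 genes called in the endothelial-like fit, with Acta2 and Adamts4.

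For genes that act with or upstream of Hox genes, the lists gave no call in the 3 classes fitted. The TALE cofactors (Pbx, Meis and Pknox proteins, which bind DNA with Hox proteins) had 4, 4 and 3 of 9 genes tested in endothelial-, mural- and satellite-like cells and none called. The Polycomb and Trithorax regulators, which keep Hox genes off or on, had 19, 16 and 17 of 20 tested and none called, with medians of -0.07, 0.11 and -0.07 log2 against 0.01, 0.02 and -0.00 over all genes. The axial inputs (Cdx factors, Gdf11 and retinoic acid receptors) had 3, 4 and 3 of 7 tested and none called. The limb position factors had 0, 3 and 4 of 10 tested and the head position factors 1, 0 and 3 of 12, again none called in edgeR's quasi-likelihood test. With 0.0613%, 1.3% and 0.0% of all genes called higher in TA in the 3 classes, a count of 0 says nothing particular about these lists.

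Several of these position factors still had values far apart in satellite-like cells. Pitx1, known for its role in the hind limb, was at 0 in both TA libraries and at 18.4 and 16.9 CPM in EOM (edgeR adjusted p = 0.226). Lbx1, which directs muscle precursors into the limb, was at 21.0 and 33.9 CPM in TA and 0 in EOM (edgeR adjusted p = 0.134). Lhx2 was at 33.1 and 50.8 CPM in TA against 2.63 and 3.21 in EOM (edgeR adjusted p = 0.0991), and Tbx1, a head mesoderm factor, at 30.1 and 32.6 against 2.63 and 0 (edgeR adjusted p = 0.204). These 4 genes were chosen after their values were seen, so nothing is read from the separation of TA and EOM. None passed the adjusted threshold.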

How the data were processed

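The authors deposited whole-number UMI counts per gene and barcode, not normalized; Cell Ranger 4.0.0 made them, per the file headers, on rn6, per the submitters' processing notes. Droplet libraries used 10x Genomics 3' chemistry, per the labels' protocols. The sources used here do not state the annotation or how cells were called.

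Barcodes with at least 200 genes and at most 20% mitochondrial UMIs were kept. The automatic scrublet threshold marked only 30 cells, so the highest scores were removed up to 0.8% per 1000 cells, a choice made after seeing it. Libraries were clustered together with scanpy 1.11.5 (counts scaled to 10000 per cell, 2000 variable genes without Hox genes, 30 components, 15 neighbours, Leiden resolution 1.0). Clusters were named from markers (at least 3 at 2-fold over the median cluster and in 10% of cells); MHC class II genes were dropped from the dendritic markers after the clusters were seen. This gave 15 named classes.

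UMIs were summed per class and library. CPM has exact Poisson intervals, ratios exact conditional binomial intervals and shares exact Clopper-Pearson intervals, at 95%; all cover counting error only. In classes with at least 50 cells in each library, edgeR 4.0.16 (quasi-likelihood, TMM normalization, default low-count filter, muscle and disease label as additive terms, 1 residual degree of freedom) tested TA against EOM, two-sided, called at an adjusted p under 0.05. DESeq2 1.42.0, other filters, normalizations and clusterings, thinning and leaving out libraries were alternatives. The edgeR step was tested on simulated data.

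Values are printed for Hox genes with at least 20 UMIs over the 4 libraries in a class with at least 50 cells in 2 or more libraries, and for the 5 genes most like the Hox sum; the genes named from the position factor lists, the HoxA rows and the lymphatic values were chosen after their values were seen. The members and lists were chosen with earlier results of these data known.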

Additional observations from a re-analysis of the deposited data

Results flagged for a closer look

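Barcodes left out of the analysis (too few genes, too many mitochondrial UMIs, or removed as doublets) also held Hox UMIs. In TA WT, 1467 such barcodes had 121 Hox UMIs, or 37.5 CPM (31.1–44.8), and in TA DMD 980 barcodes had 158, or 112 CPM (94.9–130). In EOM WT, 668 barcodes had 4 Hox UMIs, or 1.36 CPM (0.370–3.48), and in EOM DMD 832 barcodes had 22, or 7.85 CPM (4.92–11.9). These values were drawn to attention because they lie outside the cells used for the comparisons, and TA lies above EOM in them too.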

How the results depend on the processing

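The count of Hox genes called higher in TA by edgeR was 2 in endothelial-like, 2 in mural-like and 0 in satellite-like cells, and was sensitive to most settings. In endothelial-like cells it was 1 with DESeq2, 8 without a filter on low counts and 0 with muscle alone in the model, and 0 to 7 when a library was left out. In mural-like cells it was 0 with DESeq2, 6 without a filter, 0 with muscle alone, 1 with each library clustered alone, 0 after thinning to 1000 UMIs, and 0 whichever library was left out. In satellite-like cells it was 2 with RLE normalization, 4 with library size alone, 4 without a filter, 2 with muscle alone, 3 with Hox genes among the variable genes, 3 without doublet removal, 4 with each library clustered alone, 1 after thinning, and 0 to 4 when a library was left out. The cause was not tested. The fits without a library hold muscle alone, and the lone sample of an arm is assumed to vary like the others.

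The count under the 2-fold rule in endothelial-like cells (8) was 5 with at least 50 UMIs and 5 after thinning. In mural-like cells (2) it was 1 at 4-fold, 0 with at least 50 UMIs, 0 after thinning and 10 in the DMD pair alone. In satellite-like cells (3) it was 0 with at least 50 UMIs and 0 after thinning. Fewer Hox genes reach the minimum in those settings: 0 were testable wherever the count was 0.

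At Leiden resolution 0.5 the endothelial-like ratio was 16.6 in the WT pair and 9.58 in the DMD pair. The EOM Hox UMIs behind it were then 16 and 38 in place of 4 and 12, and lymphatic endothelial-like cells held 12 and 26. After thinning, the ratio was 3.93 for mural-like cells in the WT pair, at least 18.1 and 17.3 for satellite-like cells, and at least 6.79 for Schwann-like cells in the DMD pair.

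The shares of cells with a Hox UMI after thinning were 16.3% (TA WT), 15.5% (TA DMD) and 0.198% (EOM WT) in endothelial-like, 11.9% (TA WT), 14.3% (TA DMD) and 1.30% (EOM DMD) in mural-like, and 32.7% and 21.3% (TA) in satellite-like cells. Under the stricter cell filter (1000 UMIs or more, mitochondrial share up to 10%) they were 35.8% and 41.5% for TA endothelial-like, 39.8% for TA DMD mural-like and 55.0% for TA DMD satellite-like cells. With each library clustered alone they were 30.7% for endothelial-like and 28.2% for mural-like cells of TA DMD.

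Of 348 values of single genes under an alternative, 1 reversed: the log2 ratio of Hoxc5 in mural-like cells of the DMD pair was -0.027 with the stricter cell filter. Another 6 moved by over 1.5 times. The stricter cell filter left some classes under 50 cells, so 25 planned values were not run. No paired analysis was possible because each group has 1 library and the labels give no replicate numbers; the disease label is already a term of the fit.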

Other observations

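A small cluster of TA DMD cells within the myofibre-like class (cluster 30, 42 cells) was led by Myog, a factor of muscle differentiation, at 4280 CPM. Its summed Hox level was 64.2 CPM (23.6–140) from 6 UMIs, with Hoxc10 at 21.4 CPM and no Hoxc9 UMI. The other myofibre-like cells of TA DMD (cluster 8, 101 cells) had 190 CPM (129–270), with Hoxc9 leading. The difference was not tested.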
